A study of Mus musculus with 14 samples.

Results

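The genes described here encode the fibril-forming collagens of types I, III, V, II and XI. They comprise 9 genes, namely Col1a1, Col1a2, Col3a1, Col5a1, Col5a2, Col5a3, Col2a1, Col11a1 and Col11a2. A site carrying acetylated lysine 27 of histone H3 (H3K27ac) was assigned to a gene if it overlapped the annotated gene body or came within 20 kb of either end. By this rule the genes were linked to 296 of the 122228 sites in the list analysed. These 296 sites made up 0.242% of the list.

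The sites come from chromatin immunoprecipitation and sequencing (ChIP-seq) in immortalised mouse embryo fibroblasts (iMEF). Exon 4 of the endogenous Ash2l gene was excised in all cells, and a lentivirus supplied human ASH2L with an FKBP12F36V tag and an HA epitope, referred to as FKBP-HA2-ASH2L. ASH2L is a core subunit of the KMT2 methyltransferase complexes, whose substrate is lysine 4 of H3, and addition of dTAG-13, labelled dTAG, triggers degradation of the tagged protein. The 14 libraries comprised 2 H3K27ac libraries for each of 6 states, which were untreated control cells (labelled WT) and exposure to dTAG over 30 min, 2, 4, 8 or 16 h. Input chromatin, which is not immunoprecipitated, was sequenced in 1 library of control cells and in 1 of the 16 h time point. Since cells of this kind were grown from individual clones after excision of exon 4, the libraries describe clonal cells and not a tissue.

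The list was joined over all 12 H3K27ac libraries and holds positions only, without a read count, score or sample name. A site may therefore stem from any time point, and neither a time course nor a replicate error was derived from it. The list does not give the read depth behind a site. All values below are counts and lengths over a single list. They carry no p-value, and differences between genes are descriptions of this list.

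Fibrillar collagens are triple helical proteins that assemble outside the cell into the cross-striated fibrils of connective tissue. Collagen I is the bulk component of bone, skin and tendon, collagen III accompanies it in skin and vessel walls, and the minor collagen V is incorporated into the same fibrils and controls their nucleation and diameter. In cartilage the corresponding pair is collagen II with the minor collagen XI. Fibroblasts are the classical source of collagens I, III and V, while collagens II and XI are typical of chondrocytes. H3K27ac is found at active promoters and enhancers.

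The upstream sequences show how differently the start regions of these genes were covered. The table of RefSeq promoters (GRCm38.p6) had an entry for 6 of the 9 genes, with Col1a1, Col5a2 and Col2a1 lacking. The 250 bases before the start of 5 genes are given 5′ to 3′ on the strand of the gene. Capitals mark exact matches, on either strand, to 7 words searched, namely CCAAT for the CCAAT box, TATAAA for the TATA box, GGGCGG for the GC box, TGANTCA for AP-1, GGAATG for TEAD, TGTGGT for RUNX and CAGACA for SMAD.
Col3a1, chr1:45311288-45311537, plus strand: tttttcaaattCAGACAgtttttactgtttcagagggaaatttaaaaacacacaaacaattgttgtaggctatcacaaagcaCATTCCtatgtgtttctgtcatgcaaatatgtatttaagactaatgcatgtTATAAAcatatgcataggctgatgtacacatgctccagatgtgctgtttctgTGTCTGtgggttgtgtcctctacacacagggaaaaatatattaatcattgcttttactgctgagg
Col5a1, chr2:27886175-27886424, plus strand: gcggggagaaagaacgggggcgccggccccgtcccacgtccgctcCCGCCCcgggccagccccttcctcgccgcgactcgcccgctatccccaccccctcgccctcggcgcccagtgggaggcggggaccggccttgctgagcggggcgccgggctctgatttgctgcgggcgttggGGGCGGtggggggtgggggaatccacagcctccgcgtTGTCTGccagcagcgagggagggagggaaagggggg
Col11a1, chr3:114030290-114030539, plus strand: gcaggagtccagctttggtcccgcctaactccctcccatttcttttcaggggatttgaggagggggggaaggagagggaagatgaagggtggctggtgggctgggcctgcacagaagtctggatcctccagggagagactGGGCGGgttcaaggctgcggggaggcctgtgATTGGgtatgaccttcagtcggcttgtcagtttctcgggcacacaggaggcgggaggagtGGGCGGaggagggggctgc
Col5a3, chr9:20815068-20815317, minus strand: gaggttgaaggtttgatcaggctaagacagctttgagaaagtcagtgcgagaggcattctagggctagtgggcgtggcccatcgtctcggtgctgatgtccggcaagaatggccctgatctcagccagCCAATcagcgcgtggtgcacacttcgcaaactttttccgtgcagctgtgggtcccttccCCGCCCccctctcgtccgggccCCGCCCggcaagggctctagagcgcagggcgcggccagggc
Col11a2, chr17:34038888-34039137, plus strand: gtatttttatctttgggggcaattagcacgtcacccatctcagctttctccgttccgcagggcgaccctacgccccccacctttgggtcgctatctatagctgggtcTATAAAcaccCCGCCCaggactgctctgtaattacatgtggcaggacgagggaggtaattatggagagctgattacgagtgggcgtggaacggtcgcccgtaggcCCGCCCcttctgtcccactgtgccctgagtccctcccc

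In Col5a1 and Col11a1, all 250 bases were inside an H3K27ac site. In Col3a1, only 74 of the 250 bases were, and in Col5a3 and Col11a2 this was the case for 0 bases. The upstream stretch of Col3a1 was AT-rich, with a GC content of 35.2% compared to 76.4% in Col5a1. It contained a pair of matches to CAGACA and a TATAAA word, the latter at -117 to -112 bp from the start. A TATAAA word was also present upstream of Col11a2, at -143 to -138 bp. Whether these words act as a TATA box was not tested. GC boxes were seen upstream of Col5a1, Col5a3, Col11a1 and Col11a2 but not of Col3a1. Of the 32851 RefSeq promoters of 300 bases, 35.7% had a GGGCGG word, 13.6% TATAAA, 37.4% CCAAT, 21.04% CAGACA, 14.7% GGAATG, 16.8% TGTGGT and 7.81% TGANTCA. The promoter of Col1a2 is not shown because its bases overlap an exon of another annotated Col1a2 transcript, but all its 250 upstream bases were inside a site.

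The 9 genes separated widely in the number of sites and in the bases covered. The 6 genes of collagens I, III and V had 283 distinct sites, and 172842 of the 418789 bp of their gene bodies were inside a site, a share of 41.3%. The 3 genes of collagens II and XI had 13 sites, which covered 3097 of 246522 bp, or 1.26%. Cover ranged from 9.17% to 98.5% among the former genes and from 1.16% to 1.82% among the latter, without overlap between these ranges. Over all 21755 protein-coding genes of chromosomes 1 to 19 and X, the median cover was 2.22%, with an upper quartile of 8.81%. The cover of Col2a1, Col11a1 and Col11a2 was at percentiles 44.6, 43.7 and 47.6 of these genes, thus near the middle.

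Of the 296 sites, 233 overlapped a gene body and 63 were confined to a flank. Among the body sites, 112 touched an exon and 121 were wholly intronic. The median width of the body sites was 378 bp, compared to 401 bp for all sites of these chromosomes. At least 10 sites in the body and the 20-kb flanks were counted for 6 of the 9 genes, against 19.2% of all protein-coding genes. At least 1 wholly intronic site was present in 7 of the 9 genes, against 33.6% of all protein-coding genes. These shares take no account of gene length, and 8 of the 9 gene bodies are longer than the median of 17414 bp.

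**Figure D1:**
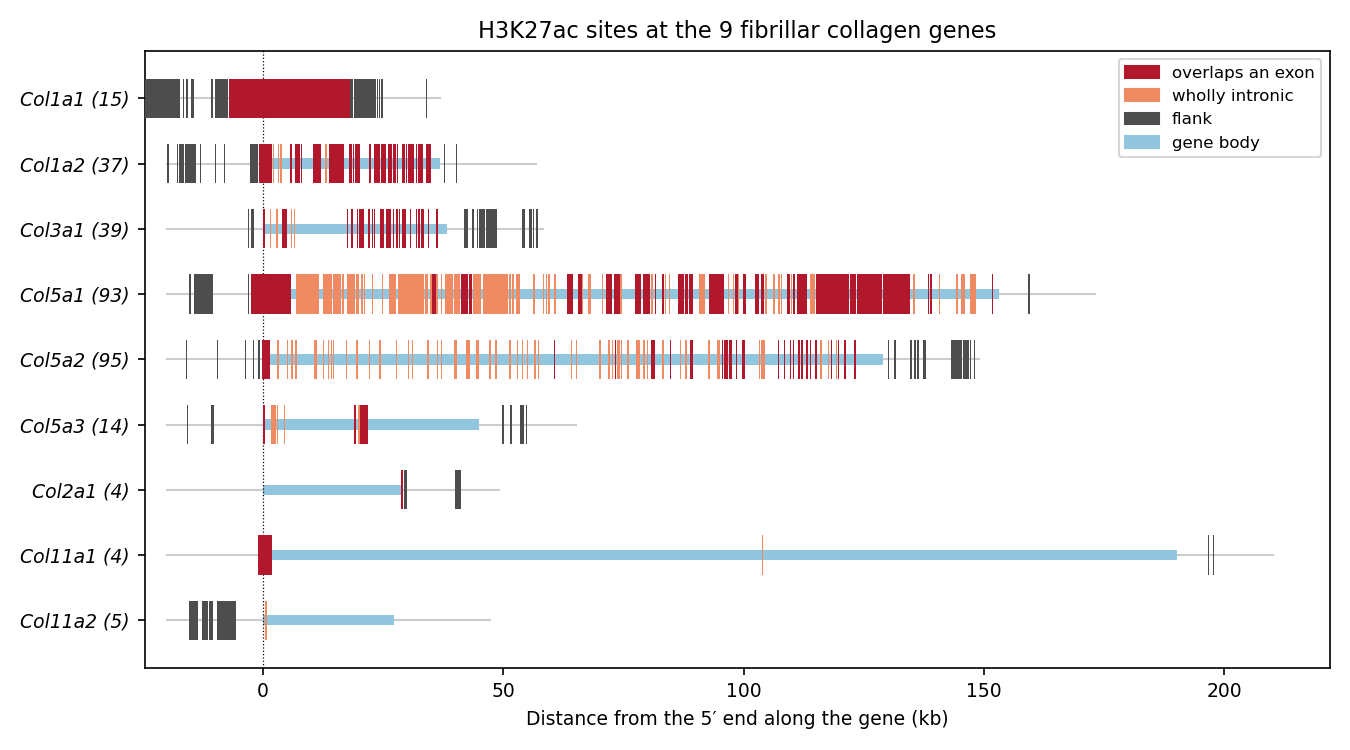
Position of each H3K27ac site relative to the 5′ end of its gene in kb, with the gene body as a blue bar, exon-overlapping sites in red, wholly intronic sites in orange, flanking sites in grey and the number of sites in brackets. Col1a1 is covered nearly end to end, and Col5a1 and Col5a2 carry 93 and 95 sites in body and flanks. Col2a1, Col11a1 and Col11a2 carry 4, 4 and 5, beside a median of 4 over all protein-coding genes.

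The 5′ end, defined as the outermost annotated end on the strand of the gene, was inside a site in 6 of the 9 genes, compared to 36.5% of all protein-coding genes. These were Col1a1, Col1a2, Col3a1, Col5a1, Col5a2 and Col11a1. The sites at these ends measured 22711 bp at Col1a1, 8414 bp at Col5a1, 2986 bp at Col11a1, 2720 bp at Col1a2, 1476 bp at Col5a2 and 454 bp at Col3a1. Col11a1 departed from the order by cover, since it had a wider 5′ site than Col1a2 and Col3a1 but the lowest cover of all 9 genes. Among the other genes with a covered 5′ end, the order by width was largely that by cover. The exception was Col5a2, with a wider 5′ site than Col3a1 but lower cover (21.4% and 28.5%). With the middle of a site required to be within 1 kb of any annotated transcription start site (TSS), 7 of the 9 genes had such a site, compared to 54.7% of all protein-coding genes. Col5a3 and Col11a2 were gained by this definition, whereas Col1a1 was lost because the middle of its wide site is far inside the gene.

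**Figure D2:**
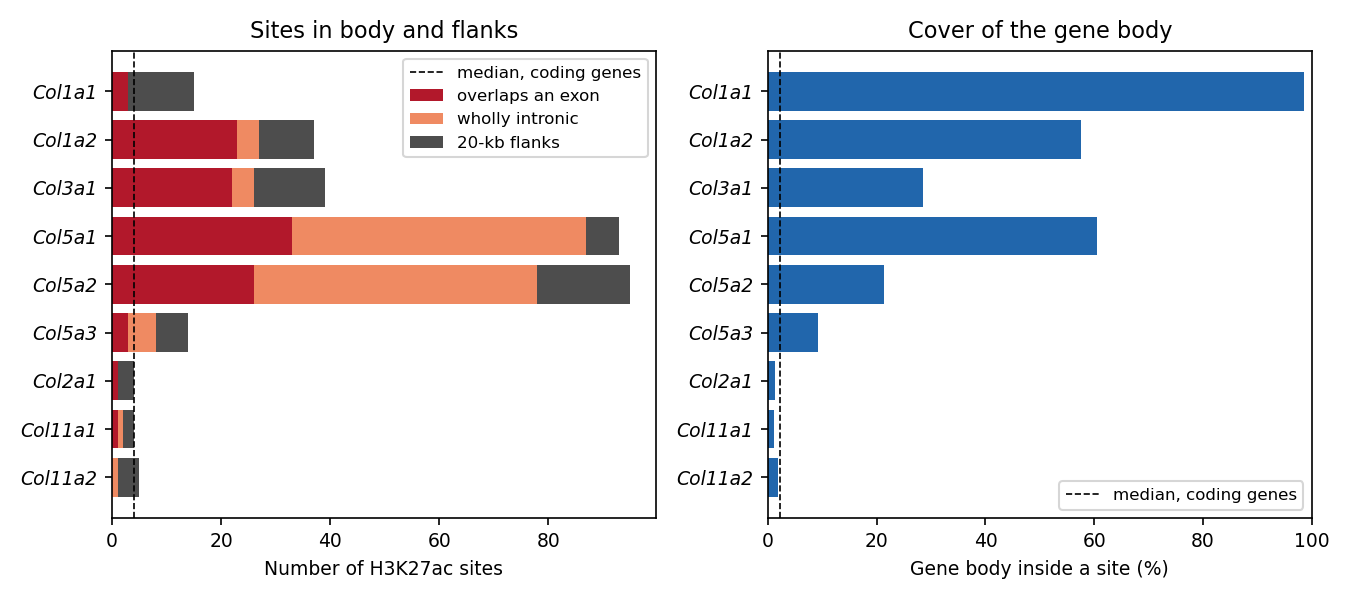
Number of H3K27ac sites per gene, divided into exon-overlapping, wholly intronic and flanking sites (left), and percentage of the gene body inside a site (right). Dashed lines mark the medians over all protein-coding genes, 4 sites in body and flanks and 2.22% cover, and the genes of collagens I, III and V are above both lines.

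Col1a1 encodes the chain that contributes most to the collagen I molecule. The gene (chr11:94936224-94953042, plus strand) had just 3 body sites, but these covered 16572 of 16819 bp, or 98.5%. Most of this was due to a single site of 22711 bp (chr11:94929041-94951751), which spans from -7183 to 15527 bp relative to the 5′ end and has rank 3 by width in the whole list. A second body site of 1519 bp covered the 3′ end, and Col1a1 was the only one of the 9 genes with its 3′ end inside a site. All 51 exons of the longest protein-coding transcript were touched and 50 were wholly inside, as were all of its 50 introns. The largest uncovered stretch in the body was 133 bp.

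The flanks of Col1a1 were also occupied. Upstream, 6 sites added up to 11791 bp, with a 7418-bp site (chr11:94911590-94919007) beginning outside of the 20-kb window. Downstream, 6 sites added up to 6193 bp, of which 4541 bp were due to the site at chr11:94955140-94959680. If sites less than 1 kb apart are joined, the gene lies in a run of 35709 bp. Among the 14062 protein-coding genes of at least 10 kb, Col1a1 had rank 2 by cover, behind Vasn with 99.1%. The next in order were Midn with 98.4%, Csf1 with 97.4% and Amotl2 with 96.8%. None of these genes encodes a collagen.

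Col1a2 encodes the partner chain of collagen I, but its sites were arranged differently. The gene (chr6:4504814-4541544, plus strand) had 27 body sites, which covered 21150 of 36731 bp, or 57.6%. The widest of them, 3206 bp, was internal (chr6:4518423-4521628) and not at the 5′ end. With the body divided into 5 equal parts, cover varied only between 48.1% and 69.2%, and the longest uncovered stretch was 2199 bp. Only 4 body sites were wholly intronic while 23 touched an exon. Upstream there were 8 sites with 6436 bp in all, including a 1779-bp site that ends shortly before the 5′ end (position -987) and a 2271-bp site about 14 to 16 kb upstream. Downstream only 2 narrow sites were present, of 205 and 268 bp.

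Thus the pair of collagen I genes was covered by few broad sites in one case and by many medium sites in the other. The median width of the body sites was 1519 bp in Col1a1, over 3 sites only, and 745 bp in Col1a2. This contrast depends on how neighbours are counted. With sites less than 1 kb apart joined, the body of Col1a1 lay in 1 run and that of Col1a2 in 4, the longest of 12983 bp. The RefSeq start of Col1a2 is 804 bp downstream of the outermost GENCODE end, and both positions were inside the same 2720-bp site (chr6:4503948-4506667).

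Col3a1, the gene of the homotrimeric collagen III, is located at chr1:45311538-45349706 on the plus strand. It had 26 body sites, and 10894 of 38169 bp were covered, or 28.5%. The 454-bp site at its 5′ end was the narrowest among the 6 genes with a covered 5′ end. After sites in the early part of the gene, a stretch of 10823 bp from 6610 to 17432 bp behind the 5′ end was free of sites, and with the gene divided into 5 equal parts, cover of part 2 was thus 0%. Cover was 33.6% in part 3, 51.1% in part 4 and 26.97% in part 5. The median width of the body sites was 327.5 bp, and 1 site exceeded 1 kb. With sites less than 1 kb apart merged, 21925 bp of the gene were covered.

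**Figure D3:**
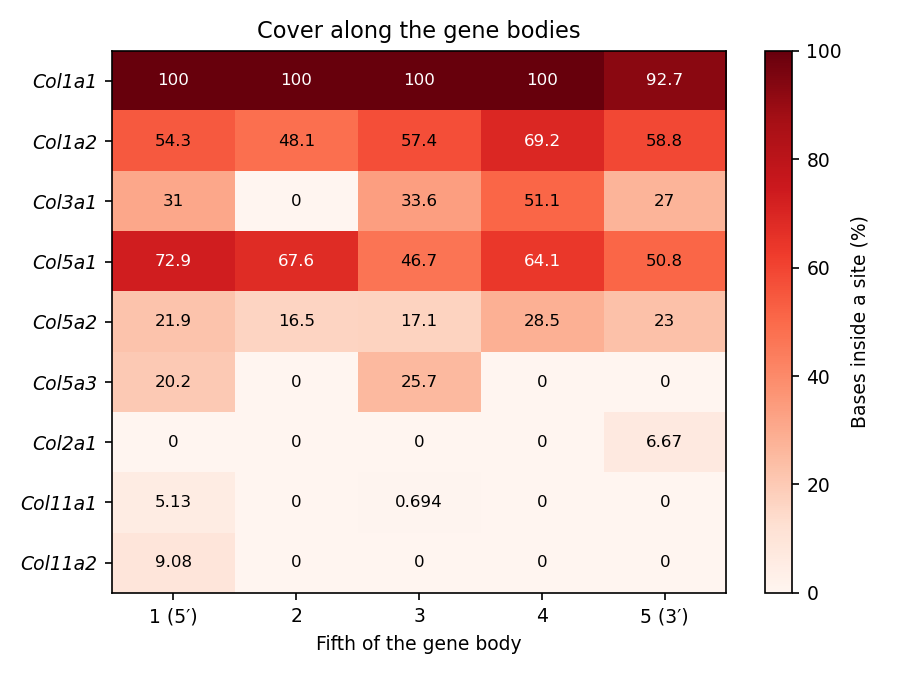
Percentage of bases inside an H3K27ac site in each of 5 equal parts of the gene body, from the 5′ end (1) to the 3′ end (5), for the 9 genes. Col1a1, Col1a2, Col5a1 and Col5a2 have cover in all parts, part 2 of Col3a1 is empty, and Col5a3, Col2a1, Col11a1 and Col11a2 each have 3 or 4 empty parts.

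The genes of collagen V differed most from each other. Col5a1 encodes the chain present in most collagen V molecules, Col5a2 its usual partner, and Col5a3 a chain found in a minor form. Col5a1 (chr2:27886425-28039514, plus strand) had 87 body sites, Col5a2 (chr1:45374321-45503282, minus strand) had 78 and Col5a3 (chr9:20770050-20815067, minus strand) had 8. Cover was 60.4%, 21.4% and 9.17%, respectively. In sites per 10 kb of body, Col5a1 and Col5a2 were close, with values of 5.68 and 6.05, while the median width was 587 bp in Col5a1 and 296.5 bp in Col5a2. The close numbers depend on how neighbours are counted. With sites less than 1 kb apart merged, Col5a1 had 23 sites and Col5a2 had 42 in body and flanks, and the covered bases of Col5a2 rose from 27595 to 49562 bp.

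In Col5a1, 24 body sites exceeded 1 kb. Its 8414-bp site over the 5′ end (chr2:27883877-27892290) was followed in the first intron by sites of 4812 bp and 5415 bp, among others, so that 74.3% of the 35092 bp of this intron were covered. Broad sites also occurred toward the 3′ end, with 5112 bp at chr2:28009979-28015090 and 5646 bp at chr2:28015300-28020945. The longest uncovered stretch was 3383 bp, or 2.21% of the gene. A body site of at least 4000 bp was found in 2 of the 9 genes, Col1a1 and Col5a1, compared to 2.75% of all protein-coding genes. The flank upstream of Col5a1 had 5 sites with 4557 bp in all, and the flank downstream 1 site of 468 bp.

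In Col5a2, by contrast, 1 of 78 body sites exceeded 1 kb, namely the 1476-bp site at the 5′ end. The other sites were scattered along the gene with a median spacing of 888 bp, and cover of the 5 equal parts ranged from 16.5% to 28.5%. The first intron, with 59952 bp, was touched by 32 sites and covered to 18.2%. Of the body sites, 52 were wholly intronic and 26 touched an exon.

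In Col5a3, the 5′ end was not inside a site, but a 344-bp site (chr9:20814704-20815047) began 20 bp downstream of it. Including this site, 5 sites were in part 1 of 5 of the gene. A cluster of 3 sites was near the middle, the widest with 1569 bp (chr9:20793260-20794828), and the last 23210 bp before the 3′ end, which are 51.6% of the gene, had no site. Thus in this gene a site stood next to the start, without covering the annotated first base.

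**Figure D4:**
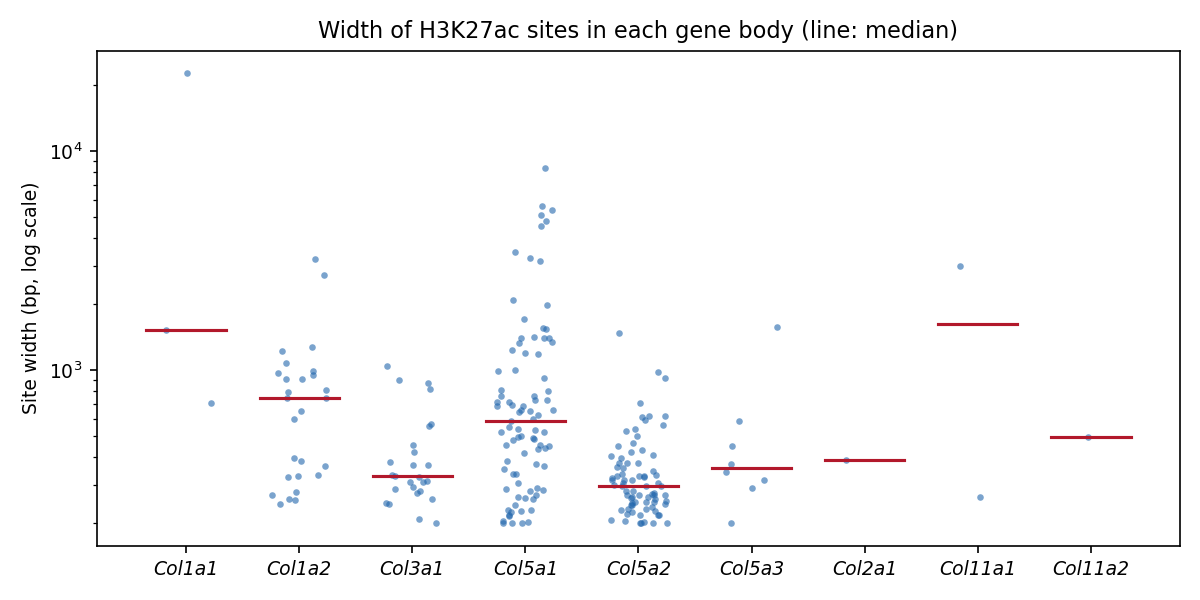
Width in bp, on a log scale, of each H3K27ac site that overlaps the body of a fibrillar collagen gene, with the median as a red line. The sites of Col5a1 reach 8414 bp with a median of 587 bp, whereas those of Col5a2 have a median of 296.5 bp and the widest is 1476 bp.

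The sequences of narrow intronic sites are given to show what the scattered sites consist of. For genes with wholly intronic sites of at most 300 bp, the site nearest to the 5′ end was taken, and 4 of these are shown on the strand of the gene from GRCm38.p6, with the same 7 words in capitals.
Col1a2, chr6:4507834-4508087, plus strand: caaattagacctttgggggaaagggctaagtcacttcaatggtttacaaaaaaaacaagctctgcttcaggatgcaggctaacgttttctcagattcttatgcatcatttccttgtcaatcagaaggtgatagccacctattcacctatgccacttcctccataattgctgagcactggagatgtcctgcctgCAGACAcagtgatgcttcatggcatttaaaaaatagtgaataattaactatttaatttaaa
Col3a1, chr1:45317340-45317547, plus strand: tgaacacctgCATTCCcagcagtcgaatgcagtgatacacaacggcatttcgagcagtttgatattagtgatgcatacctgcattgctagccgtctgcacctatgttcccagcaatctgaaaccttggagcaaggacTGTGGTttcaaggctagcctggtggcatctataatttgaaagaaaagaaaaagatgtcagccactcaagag
Col5a2, chr1:45498102-45498364, minus strand: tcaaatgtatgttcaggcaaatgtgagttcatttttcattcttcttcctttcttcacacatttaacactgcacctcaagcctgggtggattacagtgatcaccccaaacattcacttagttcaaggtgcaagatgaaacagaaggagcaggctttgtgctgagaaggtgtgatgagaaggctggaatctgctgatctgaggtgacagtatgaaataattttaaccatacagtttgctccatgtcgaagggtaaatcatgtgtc
Col11a1, chr3:114134276-114134539, plus strand: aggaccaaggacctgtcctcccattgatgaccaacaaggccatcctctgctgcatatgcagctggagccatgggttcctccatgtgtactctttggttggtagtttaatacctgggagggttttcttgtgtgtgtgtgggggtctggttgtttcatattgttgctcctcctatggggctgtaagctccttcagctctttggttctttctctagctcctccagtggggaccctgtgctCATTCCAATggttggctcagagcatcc

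The Col1a2 site contained no base that the genome marks as repeat, and the shares of repeat bases were 9.13% in the Col5a2 site and 25.5% in the Col3a1 site. Over all covered bases of the Col5a2 body, the share of repeat was higher, at 35.9%. The Col11a1 site was different, since 97.7% of its 264 bp were repeat sequence. In the Col11a1 site the words GGAATG (as CATTCC on the opposite strand) and CCAAT share 2 bases. The Col5a2 site had no match to any of the words.

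In the 300 bases at the middle of the 296 sites, the AP-1 word TGANTCA occurred in 9.80%, the TEAD word GGAATG in 17.9%, the RUNX word TGTGGT in 21.3% and the SMAD word CAGACA in 23.0%. The shares among all 122171 sites of chromosomes 1 to 19 and X were 12.4%, 18.2%, 22.5% and 29.1%. CCAAT was found in 36.5% of the collagen sites and 30.5% of all sites, TATAAA in 11.5% and 11.7%, and the GC box in 4.73% and 9.81%. These are matches to letters, not binding data. Windows of neighbouring sites can overlap, and at sites under 300 bp they reach beyond the site. The lower quartile of the width of body sites was 269 bp. Col5a1 and Col5a2, with 93 and 95 sites, supplied most of the collagen sites.

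Col2a1, the gene of the main cartilage collagen (chr15:97975602-98004695, minus strand), had a single body site. This 388-bp site (chr15:97975686-97976073) is close to the 3′ end and 28622 bp from the 5′ end, which was free of sites. The upstream flank contained 0 sites. Of 3 sites downstream, a 612-bp site overlapped Tmem106c, the neighbouring gene of a transmembrane protein. The promoter of Col2a1 was GC-rich, with 64.2% GC in the 500 bp on either side of the 5′ end, and thus the lack of a site was not paralleled by a low GC content.

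Col11a1 (chr3:114030540-114220718, plus strand) had a well covered 5′ end, but only 1.16% of its body was covered. Its 2986-bp site (chr3:114029504-114032489) extends to 1949 bp behind the 5′ end and was followed by 101786 bp without a site. The repeat-rich site of 264 bp shown above was the only other site in the 190179 bp of this gene. Both sites downstream measured 200 bp, the narrowest width in the list. Col5a1, which encodes the most similar chain in collagen V, likewise had a covered 5′ end, but there the cover of the body was 60.4% and not 1.16%.

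Col11a2 (chr17:34039437-34066685, plus strand) had 1 body site, which was wholly intronic, of 495 bp and located 366 to 860 bp behind the 5′ end. The 4 upstream sites, with 7946 bp in all, each overlapped another protein-coding gene. They were at Ring1, a Polycomb E3 ligase gene, H2-Ke6, a gene of a steroid dehydrogenase, Slc39a7, a zinc transporter gene, and Rxrb, which encodes a retinoid X receptor. The widest was the 4036-bp site at chr17:34029797-34033832 over parts of Rxrb and Slc39a7. Without them, Col11a2 was left with 1 site. The RefSeq start differs from the GENCODE 5′ end by -299 bp, and neither was inside a site.

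Flanking sites of the other genes rarely overlapped a further gene. Of the 63 distinct flanking sites, 7 overlapped another protein-coding gene. Apart from those named, they were at Sgca, the gene of alpha-sarcoglycan, downstream of Col1a1 and at Rdh8, a retinol dehydrogenase gene, upstream of Col5a3. Col3a1 and Col5a2 are neighbours with their 3′ ends facing each other, 24614 bp apart. The interval contained 13 sites with 7569 bp in all, and 10 of these, with 6053 bp, were within 20 kb of both genes, so that they were counted for each but only once in the total of 296. The widest of them measured 1654 bp (chr1:45357823-45359476). Which gene a flanking site belongs to cannot be told from its position.

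Exons and introns were covered unequally, and this was examined after the arrangement of the sites had been seen. For the longest protein-coding transcript without its first exon, exons were covered to 74.5% and introns to 53.3% in Col1a2. The corresponding values were 49.9% and 24.4% in Col3a1, and 41.9% and 20.1% in Col5a2. Thus exon cover exceeded intron cover by more than 20 percentage points in these genes (21.2, 25.5 and 21.8). In Col5a1, the exons were covered less than the introns, with 53.7% and 60.7%. Among 1828 protein-coding genes with at least 10 body sites, the median difference between exon and intron cover was -3.79 percentage points, and exon cover was the higher one in 27.8%.

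**Figure D5:**
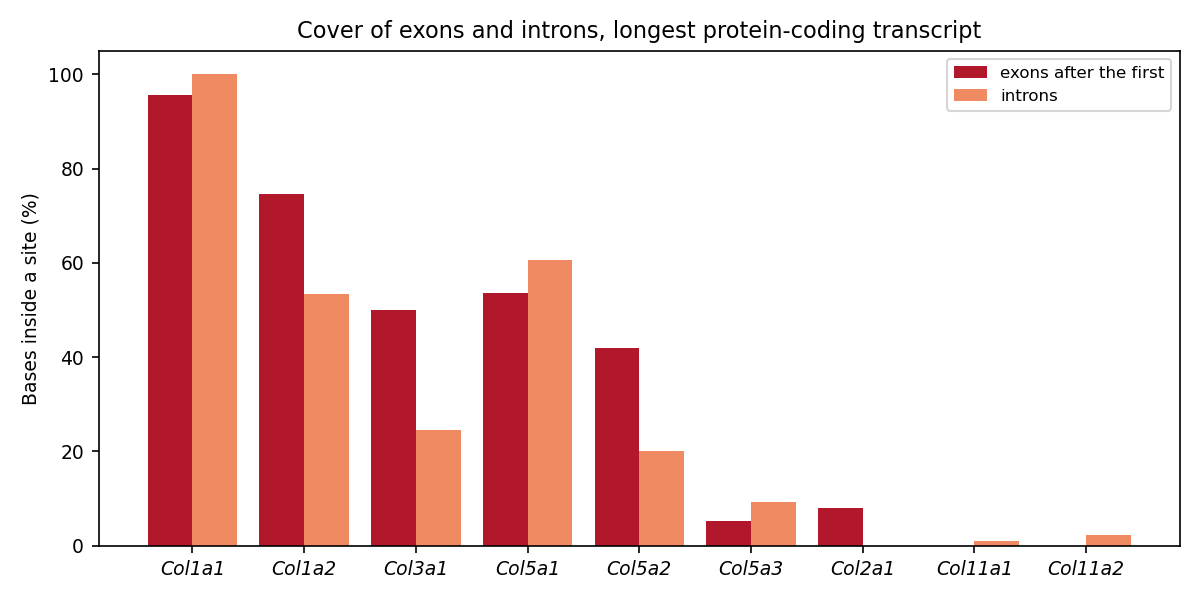
Percentage of bases inside an H3K27ac site in exons after the first (red) and in introns (orange) of the longest protein-coding transcript of each gene. Exon cover exceeds intron cover in Col1a2, Col3a1 and Col5a2 by 21.2 to 25.5 percentage points, while Col5a1 shows a difference of -6.98 points.

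Covered bases had a higher GC content than uncovered bases in several of the genes but not in all. Covered bases had a GC content of 45.5% and uncovered bases of 34.7% in Col1a2, 43.8% and 32.7% in Col3a1, and 44.4% and 34.0% in Col5a2. The difference was smaller in Col5a1, with 53.3% and 47.9%. Repeat sequence made up 35.9% of covered and 26.2% of uncovered bases in Col5a2, but 7.70% and 20.6% in Col5a1. The part of base composition in the exon cover or in the number of sites was not tested.

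The composition around the 5′ ends did not sort the genes by cover. A CpG-rich window, that is 200 bp with a GC content of 50% or more and a ratio of observed to expected CpGs of 0.6 or more, was present within 1 kb of the 5′ end in 8 of the 9 genes, all but Col3a1, and in 68.0% of all protein-coding genes. Of all genes with such a window, 51.1% had the 5′ end inside a site, and of those without it 5.34%. Col3a1, with 39.7% GC around the 5′ end, was among the latter, whereas Col2a1, Col5a3 and Col11a2 had the window but no site over the 5′ end. The CpG ratio of the 1000 bases around the 5′ end was highest in Col5a1, at 0.823, followed by Col2a1 at 0.603. The median over all protein-coding genes was 0.558, and the other members were below it, between 0.179 and 0.459.

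Genes acting on fibrillar collagens were compared as lists. Of 14 genes grouped under hydroxylases and glycosyltransferases, not all of which encode such enzymes, 9 had the 5′ end inside a site. Of 8 genes for procollagen proteinases and their enhancers 7 had, with Tll2 as the exception. The list headed chaperones and export gave 5 of 7, namely Mia3, Creb3l1, Tmem38b, Serpinh1 and Fkbp10. The heading is loose, since Creb3l1 and Tmem38b encode neither a chaperone nor an export factor. Serpinh1, which encodes the collagen chaperone HSP47, had 68.3% of its body covered, the highest value in this list, whose median was 9.31%. Cross-linking oxidases gave 4 of 5, that is Lox, Loxl1, Loxl3 and Loxl4. Their cover ranged from 4.93% in Loxl2 to 79.9% in Loxl1, with a median of 30%. Genes of fibril-binding proteins gave 5 of 7 (Fn1, Fmod, Postn, Sparc and Bgn). Cover was 84.2% in Sparc and 84.8% in Bgn but 0.842% in Postn, and Dcn and Lum had 0 body sites. Other collagens gave 9 of 18. The remaining fibrillar collagens Col24a1 and Col27a1 both had a 5′ end outside of the sites. They had 11 and 22 body sites, with 1.64% and 19.5% cover, and only Col27a1 had a site with its middle within 1 kb of a TSS. Over all lists, the 5′ end was inside a site in 39 of 61 genes, beside 36.5% of all protein-coding genes, and the median cover was 9.71%. Except for Tll2, the genes named from these lists were chosen after their values were seen.

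Markers of cell types were read in the same way to check the label. The 5′ end was inside a site in 7 of 10 fibroblast genes, in 2 of 10 chondrocyte genes (Sox9 and Hapln1), in 1 of 5 osteoblast genes (Runx2), in 1 of 4 blood genes (Cd68) and in 0 of 5 epithelial and 0 of 4 endothelial genes, beside 36.5% of all protein-coding genes. No test was run, and in lists this short none of these counts, the fibroblast one included, was set apart from that share. Fn1, Postn and Dcn of the fibroblast list are also in the list of fibril-binding proteins. Of the cartilage genes, Acan and Matn1 had 0 body sites, but Sox9 had 47.2% cover. Sox5 and Sox6 had 37 and 36 body sites, but in bodies of 953553 and 567925 bp. Their cover was 1.49% and 2.999%, beside a median of 2.22% over all protein-coding genes, and neither 5′ end was inside a site. Of the epithelial genes, Cdh1 had 15 body sites and 16.7% cover. The fibroblast genes included Vim with 45.2% cover and Prrx1 with 36.0%, while Dcn had 0 sites. The genes named here were also chosen after their values were seen.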

How the data were processed

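H3K27ac ChIP-seq was carried out by the authors in 12 libraries, with 2 input libraries. Reads were trimmed with Trim Galore, aligned to mm10 (GRCm38) with BWA, filtered with SAMtools, and replicates were merged with Picard before narrow peaks were called with MACS (MACS2 per the submitters' processing notes, which also name deepTools and DESeq2). Its version and threshold and the way in which peaks were joined are not given in the sources used here. If overlapping peaks were merged, a width can exceed that in any sample. The list the authors deposited and that was used here gives genome positions in bp (chromosome, start, end), with no counts or other value per sample. Other files of the study were not used here.

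Starts were read as counted from 0, since the narrowest sites then measure 200 bp, and are printed counted from 1. Positions relative to a 5′ end count its first base as 0. Gene bodies, exons and TSSs were from GENCODE M21, also on GRCm38 (the authors used a later release). An overlap of 1 bp sufficed. Exons of any annotated transcript decided whether a site was intronic. The genome was GRCm38.p6, with repeats as soft-masked there. The background was all 21755 protein-coding genes on chromosomes 1 to 19 and X, and 122171 of the sites were on these chromosomes. Python 3.11.15, numpy 2.4.6, pandas 2.3.3 and matplotlib 3.10.9 were used. Counting was tested on simulated data with known positions, in which all 200 genes gave the same counts as a count base by base.

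Named genes were the 9 members, protein-coding genes under flanking sites, up to 3 genes of at least 10 kb next to Col1a1 in cover on either side, and in each list the exceptions where over 80% or under 20% had a covered 5′ end. Members, lists and rules were chosen with earlier results of these data known. Tests of each time point against control had been planned in case of read counts and were not made. Alternatives comprised flanks of 10 and 50 kb, the middle of a site as criterion, omission of the narrowest 25% of sites, merging of sites less than 1 kb apart, starts counted from 1, and other gene ends. Protein sequences were not used here.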

Additional observations from a re-analysis of the deposited data

How the results depend on the processing

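Of 34 values recomputed over the 9 genes, 28 were within 1.5 times of the reported value. With sites less than 1 kb apart merged, 100 distinct sites remained in place of 296, 35 in place of 121 were wholly intronic and 25 in place of 63 were flanking. Flanking sites numbered 40 with a flank of 10 kb, 142 with 50 kb and 41 without the narrowest 25% of all sites. Covered 5′ ends stayed at 6 except when 1 kb was allowed around a site, which added Col5a3 and Col11a2 (8). Covered bases ranged from 160411 bp, without the widest site at Col1a1, to 239748 bp with sites merged. Without that site, 1044 bp of Col1a1 were covered. For single genes, 167 of 189 values were within 1.5 times. The settings with RefSeq gene ends, with the 5′ end of any annotated transcript and without the widest site were chosen after seeing the data.

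No paired analysis was possible because sites in the list used here come without any value per library. For the same reason the planned edgeR fit was not run. A DESeq2 fit, filter and library size settings and the omission of single replicates were not possible either. The list limits what can be said, as the height of a site, its time point and its presence in a replicate are unknown.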

Other observations

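Among the collagens that do not form fibrils, the number of sites varied as widely as among the fibrillar ones. Col12a1, which encodes a collagen attached to the surface of fibrils, had 77 body sites and 27.2% cover, but its 5′ end was not inside a site. Col8a1 had 62 body sites and 19.7% cover. Of the collagen VI genes, Col6a3 had 28 body sites, Col6a2 had 2 and Col6a1 had 1, in bodies of 78049, 27869 and 17377 bp. Their cover was 26.5%, 2.80% and 11.4%, respectively. These chains form a common molecule, and all 5′ ends of the collagen VI genes named were inside a site. The genes of collagen IX, the cartilage collagen bound to fibrils of collagens II and XI, had no body site: Col9a1, Col9a2 and Col9a3 were each at 0% cover. Col10a1, typical of hypertrophic cartilage, had 1 body site, of 279 bp, which covered the 5′ end. These genes were chosen for description after their values were seen.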
